A study of Apis mellifera with 6 samples.

Results

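CYP6AQ1, Cyp6as5, GstD1 and GstS1 are enzymes of insect detoxification, and their mRNA levels were read in the midgut of honey bees (Apis mellifera) by RNA sequencing. They were chosen by symbol as the phase I enzymes (the P450s CYP6AQ1 and Cyp6as5) and the phase II enzymes (the glutathione transferases GstD1 and GstS1), and make up 4 of the 10013 genes measured. The control group was 3 samples (controls 1, 2 and 3) from bees fed sucrose solution with 0.5% DMSO, the solvent, for 24 hours. The treated group was 3 samples (tunicamycin 2, 3 and 4) from bees fed 24 µM tunicamycin in the same solution with 0.5% DMSO for the same time. Tunicamycin blocks the first step of N-glycosylation, so that misfolded proteins build up in the endoplasmic reticulum. The labels used here give no age, strain or colony of the bees and do not say how many midguts a sample holds, so a p-value here speaks of the scatter of these 6 samples, and part or all of that scatter may be technical.

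Cytochromes P450 are heme enzymes that insert oxygen into small lipophilic molecules, which is the first phase of detoxification. Glutathione transferases join such molecules, or products of lipid oxidation, to glutathione, which is the second phase. The insect midgut is a main site of both, since plant compounds and pesticides enter with food. The honey bee genome is known for holding fewer genes of these families than the genomes of most other insects.

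All 4 genes were read in every sample. The lowest value among them, that of Cyp6as5 in control 2, rested on 1066 reads, with an exact 95% Poisson interval of 1003 to 1132 reads, which covers counting error alone. Values are normalized reads, meaning gene read counts that the authors put on a common scale with size factors. The samples held from 22763496 to 26278751 recovered reads. As a check of the treatment, Hsc70-3, the endoplasmic reticulum chaperone BiP, rose by a log2 fold change of 2.73 (SE 0.40, n = 3 each; limma adjusted p = 0.0279, a call that is lost with either replicate block and when any sample but control 1 is left out, while the log2 fold change stayed between 2.42 and 3.13). Control 1 stood apart from its group: 964 genes lay at least 2-fold from the mean of the other controls, against 480 and 459 for controls 2 and 3. The same count within the treated group was 617, 690 and 512 for tunicamycin samples 2, 3 and 4. The alpha-glucosidases Hbg2 and AGLU2, digestive enzymes taken as markers of midgut enterocytes, were abundant in every sample, while the summed level of 5 fat body markers lay between 448 and 918 normalized reads and that of the hemocyte marker PPO between 42.5 and 71.9. The sum of 5 visceral muscle markers lay between 4590 and 7773 normalized reads. For the hypopharyngeal gland 3 of 8 markers were matched, with a sum between 1529 and 2984. The markers of enteroendocrine and neural cells summed to between 619 and 1118. None of the markers matched by name for all these tissues was at 0, and none passed the test between groups.

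The study's comparison is of midgut gene expression with and without tunicamycin. None of the 4 genes passed the test across all genes (limma on log2 values, Benjamini-Hochberg adjusted p under 0.05), in which 1.13% of all genes passed, 1.06% as higher and 0.0699% as lower. By unadjusted limma p, CYP6AQ1 was the single gene of the 4 under 0.05, against 15.5% of all genes. CYP6AQ1 had lower values in tunicamycin, Cyp6as5 had higher values except beside control 1, and both transferases had small negative differences. The median log2 fold change was -0.26 over the 4 genes and 0.00 over all genes tested.

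**Figure D1:**
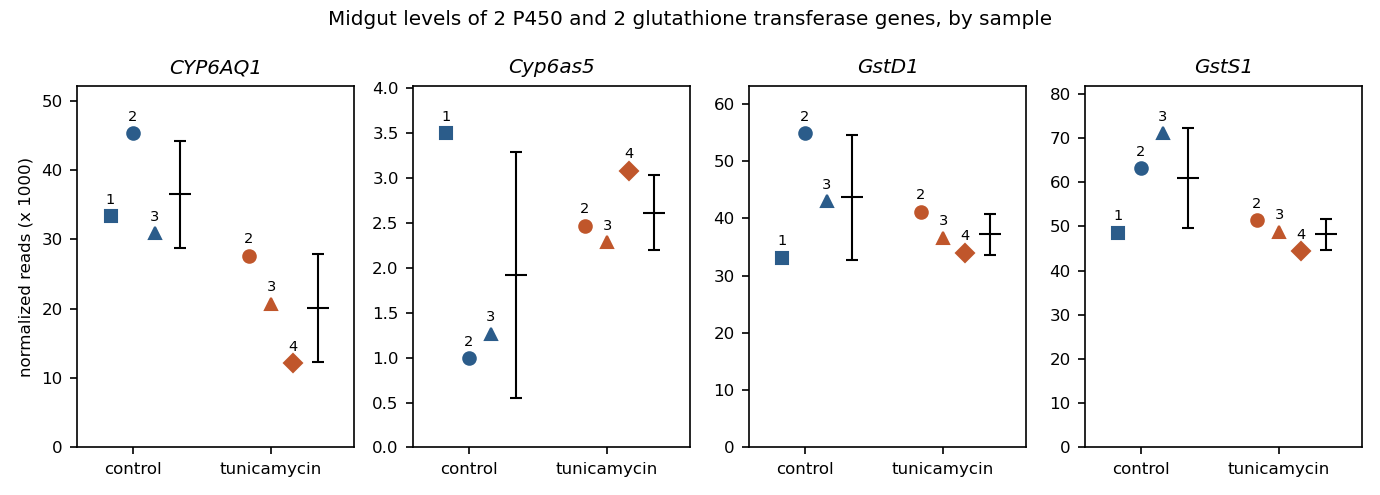
Normalized reads (in units of 1000, linear axis from 0) of each gene in each sample; numbers are replicate numbers, and the black mark with its bar is the mean ± SD of 3 samples. All 3 tunicamycin samples lie below all controls for CYP6AQ1, while for Cyp6as5 control 1 lies above all tunicamycin samples and controls 2 and 3 lie below them.

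CYP6AQ1 belongs to the CYP6 family, which in insects includes many enzymes that break down plant toxins and insecticides, and in the honey bee it has been found to metabolise the insecticide flupyradifurone. Controls 1, 2 and 3 held 33343, 45310 and 30893 normalized reads of it. Tunicamycin samples 2, 3 and 4 held 27646, 20738 and 12101. The groups did not overlap, and tunicamycin sample 4 was the lowest of all. The groups of 10.7% of all genes were likewise separate with tunicamycin lower, so separation alone does not set CYP6AQ1 apart. Means were 36515 ± 7714 and 20162 ± 7788 (SD, n = 3 each), a log2 fold change of -0.92 (SE 0.32; 95% interval -1.66 to -0.17, not adjusted over genes), or 0.53 times the control level. The limma adjusted p was 0.242, so that the lower level did not pass across all genes. Over 15 alternative analyses the log2 fold change stayed between -1.18 and -0.59, and the adjusted p between 0.0801 (DESeq2) and 0.566 (limma without tunicamycin sample 4).

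In bulk samples such as these, fewer cells of a type and less RNA per cell cannot be told apart. The summed level of the enterocyte markers Hbg2 and AGLU2 ranged from 1102490 to 1590710 normalized reads in controls and from 701321 to 1301940 in tunicamycin. Its lowest value was in tunicamycin sample 4, the sample with the least CYP6AQ1. Per 1000 reads of these markers, CYP6AQ1 stood at 30.2, 34.4 and 19.4 in controls 1, 2 and 3 and at 23.8, 15.9 and 17.3 in tunicamycin samples 2, 3 and 4. On that scale the groups overlapped, through control 3 and tunicamycin sample 2. The part of these markers in the lower CYP6AQ1 level was not tested. On the same scale the means of both transferases turned direction. They were 32.9 in controls and 37.3 in tunicamycin for GstD1, and 45.5 and 48.3 for GstS1. The turn rested on tunicamycin sample 4, the highest of all for both, and the groups overlapped. Tunicamycin samples 2, 3 and 4 stood at 35.4, 28.1 and 48.5 for GstD1 and at 44.3, 37.5 and 63.3 for GstS1. The mean of Cyp6as5 was 1.57 in controls and 2.76 in tunicamycin, with overlap.

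Cyp6as5 is 1 of the CYP6AS genes, a P450 subfamily of bees of which several members metabolise quercetin, a flavonol of pollen and honey. It stood at 3501 normalized reads in control 1, 992 in control 2 and 1269 in control 3. In tunicamycin samples 2, 3 and 4 it stood at 2471, 2283 and 3082. Control 1 was thus the highest sample of all and controls 2 and 3 the lowest, with the tunicamycin samples between them. Means were 1920 ± 1376 and 2612 ± 418 (SD, n = 3 each), with a log2 fold change of 0.66 (SE 0.43; 95% interval -0.36 to 1.67; limma adjusted p = 0.513). That is 1.58-fold from the log2 values, while the ratio of the printed means is 1.36. The log2 fold change was 0.44 in edgeR and 0.44 in DESeq2. The spread among controls, 3.53-fold from lowest to highest, was wider than that of 95.4% of all genes, while the tunicamycin samples spanned 1.35-fold.

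The call on Cyp6as5 turned on control 1. Without that library the log2 fold change was 1.21 (SE 0.17; 95% interval 0.78 to 1.63; limma adjusted p = 0.0324), or 2.31-fold higher in tunicamycin, and Cyp6as5 then passed among 1.80% of all genes that were higher. In that comparison 19.6% of all genes had every tunicamycin sample above both remaining controls. Without any other single library the log2 fold change was between 0.30 (without control 2) and 0.75 (without tunicamycin sample 3), and none of these passed. Control 1 held 3.10 times the mean Cyp6as5 level of controls 2 and 3. It also held 2.26 times their mean level of Hsc70-3, with 68417 normalized reads against 35140 and 25372. The part of control 1's departure in the Cyp6as5 result was not tested beyond leaving the library out.

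GstD1 is a delta-class glutathione transferase; in Drosophila its counterpart by name acts on the insecticide DDT and is a widely used reporter of the oxidative stress response. Controls 1, 2 and 3 held 33145, 54867 and 42996 normalized reads of GstD1, and tunicamycin samples 2, 3 and 4 held 41110, 36601 and 34021. Every tunicamycin sample lay inside the range of the controls. Means were 43670 ± 10877 and 37244 ± 3588 (SD, n = 3 each), which gave a log2 fold change of -0.20 with an SE of 0.23 (limma adjusted p = 0.702). The 95% interval of the fold change, 0.60 to 1.25 times the control level, contains neither a doubling nor a halving.

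GstS1 is a sigma-class glutathione transferase, which in Drosophila conjugates 4-hydroxynonenal, a product of lipid peroxidation. Its levels were 48589, 63081 and 71057 normalized reads in controls 1, 2 and 3. They were 51401, 48814 and 44367 in tunicamycin samples 2, 3 and 4. Control 1 lay among the tunicamycin samples and controls 2 and 3 above all of them. Means were 60909 ± 11390 and 48194 ± 3558 (SD, n = 3 each), which gave a log2 fold change of -0.32 with an SE of 0.21 (limma adjusted p = 0.514) and a 95% interval of 0.57 to 1.13 times the control level. Without control 1 the log2 fold change was -0.48 (limma adjusted p = 0.234), at an unadjusted limma p of 0.0332. Without any other single sample it was between -0.37 (without tunicamycin sample 2) and -0.20 (without control 3). The unadjusted limma p was then between 0.195 and 0.451. Among tunicamycin samples GstD1 spanned 1.21-fold and GstS1 1.16-fold, wider than the spans of 32.5% and 22.3% of all genes. Among controls they spanned 1.66-fold and 1.46-fold, wider than 73.7% and 62.1% of all genes. CYP6AQ1 went the other way, with 1.47-fold among controls and 2.28-fold among tunicamycin samples.

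**Figure D2:**
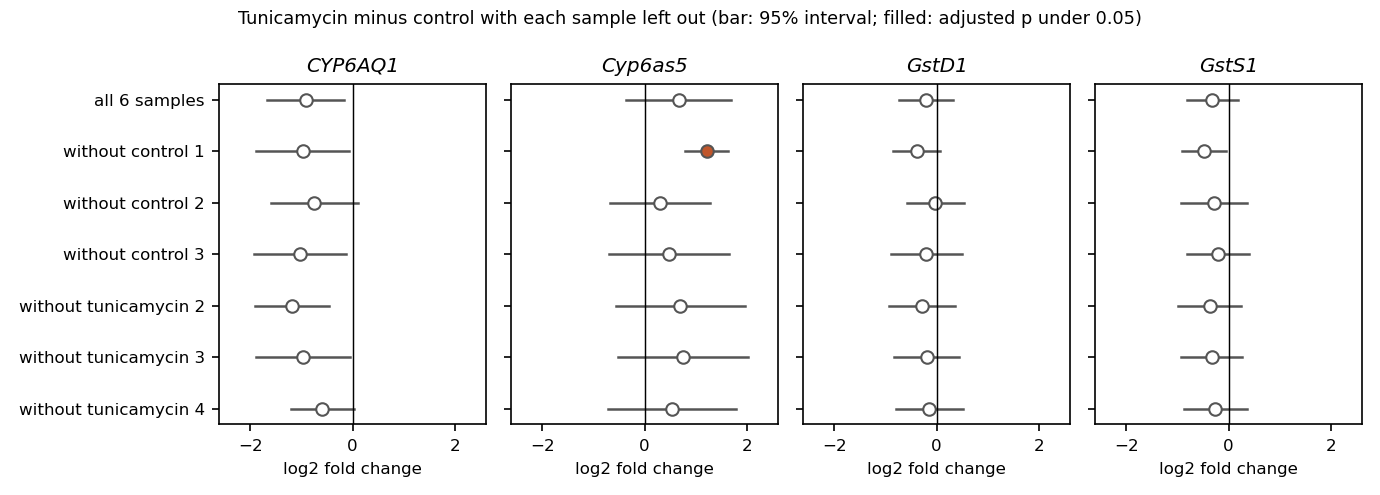
Log2 fold change (tunicamycin minus control, limma) of each gene with all 6 samples and with each sample left out; bars are 95% intervals, and filled points have an adjusted p under 0.05. The single filled point is Cyp6as5 without control 1, at 1.21.

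The tables pair each control with a tunicamycin sample, and the first pair differed from the others. In tunicamycin sample 2 against control 1, the ratios were 0.83 for CYP6AQ1, 0.71 for Cyp6as5, 1.24 for GstD1 and 1.06 for GstS1. In tunicamycin sample 3 against control 2 they were 0.46, 2.30, 0.67 and 0.77, in the same order. In tunicamycin sample 4 against control 3 they were 0.39, 2.43, 0.79 and 0.62. CYP6AQ1 was below 1 in all 3 pairs, and each of the other genes was on 1 side of 1 in the first pair and on the opposite side in the later pairs. The labels do not say that the samples of a table share a cage, day or batch.

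Ratios between the 4 genes within a sample do not depend on the scaling between samples. In all, 6 pairs of genes were compared by an exact two-sided permutation test, in which 3 against 3 samples cannot give a p below 0.1. The log2 ratio of CYP6AQ1 to GstD1 was 0.01, -0.28 and -0.48 in controls 1, 2 and 3, against -0.57, -0.82 and -1.49 in tunicamycin samples 2, 3 and 4. These groups did not overlap, with a difference of -0.71 (exact p = 0.1; adjusted over the 6 pairs 0.4). CYP6AQ1 to Cyp6as5 showed the widest difference, -1.58, with linear ratios of 9.53, 45.7 and 24.4 in controls and 11.2, 9.08 and 3.93 in tunicamycin, and the groups overlapped through control 1 (exact p = 0.2; adjusted 0.4). The ratio of GstD1 to GstS1 moved least, from 0.68, 0.87 and 0.61 in controls to 0.80, 0.75 and 0.77 in tunicamycin (log2 difference 0.12; exact p = 0.5; adjusted 0.5).

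**Figure D3:**
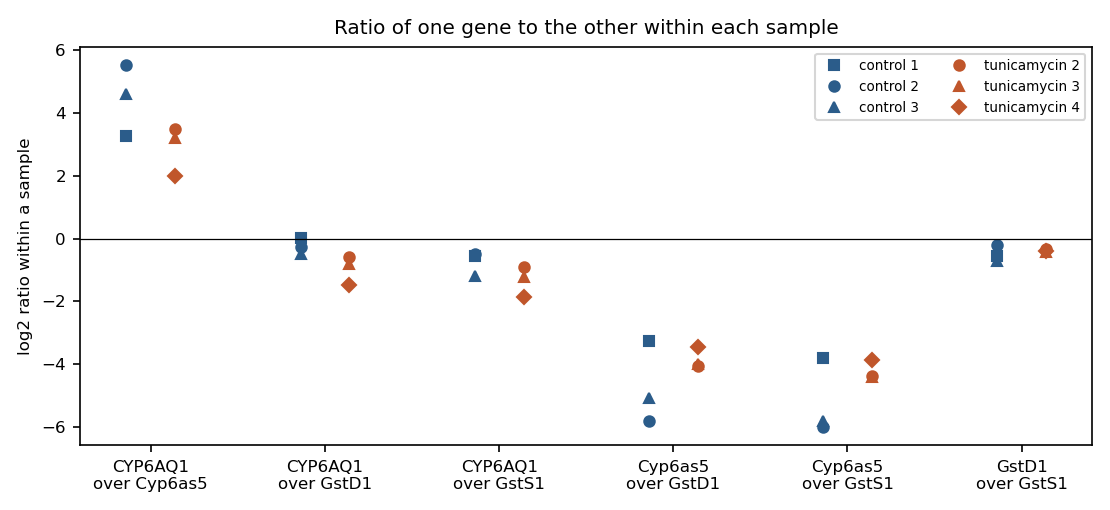
Log2 ratio of 1 gene to another within each sample for all 6 pairs of the 4 genes; blue marks are controls and orange marks tunicamycin samples. CYP6AQ1 over GstD1 is the single pair whose groups do not overlap, and control 1 lies among or beyond the tunicamycin samples for every ratio that includes Cyp6as5.

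With the 4 genes included, 6 P450s and 3 glutathione transferases could be matched by name, so that 4 P450s and 1 transferase were added. Genes of these families without such a symbol or synonym were not included, so the values do not describe the families as a whole. None of the 9 passed, against 1.13% of all genes, and the median log2 fold change was 0.05 for the 6 P450s and -0.20 for the 3 transferases, the latter being the value of GstD1 itself. Cyp314a1, named shade for the Drosophila enzyme that makes the active moulting hormone, had 126, 176 and 212 normalized reads in controls 1, 2 and 3, against 254, 168 and 248 in tunicamycin samples 2, 3 and 4 (log2 fold change 0.39, SE 0.25; limma adjusted p = 0.507). Cyp4g11, of the insect family that makes cuticular hydrocarbons, was low and uneven, from 11.6 normalized reads in tunicamycin sample 3 to 122 in tunicamycin sample 4. The transferase GstS4 was also low and uneven, between 1.94 in control 3 and 131 in tunicamycin sample 4, and its log2 fold change of 0.57 had an SE of 1.45.

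A pair of further CYP6AS genes lie near Cyp6as5 in the order of the reference table (assembly Amel_HAv3.1). LOC724946, with the synonym CYP6AS11, is separated from it by 12 genes on the side before, and LOC551028, with the synonym CYP6AS13, by 5 on the side after. LOC551028 had 7181, 3803 and 3877 normalized reads in controls 1, 2 and 3, against 7391, 4999 and 3854 in tunicamycin samples 2, 3 and 4 (log2 fold change 0.14, SE 0.32; limma adjusted p = 0.870). Like Cyp6as5 it was highest among controls in control 1, at 1.87 times the mean of controls 2 and 3. LOC724946 was lowest there, at 0.53 times, with 1915, 2563 and 4607 in controls and 2059, 2944 and 1179 in tunicamycin (log2 fold change -0.55, SE 0.41; limma adjusted p = 0.563). Of the 3 CYP6AS genes matched by name, 2 were thus highest among controls in control 1 and 1 was lowest. If reads were counted where near-identical gene copies share them, values of such related genes are uncertain, and how the authors treated those reads is not given in the sources used here.

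**Figure D4:**
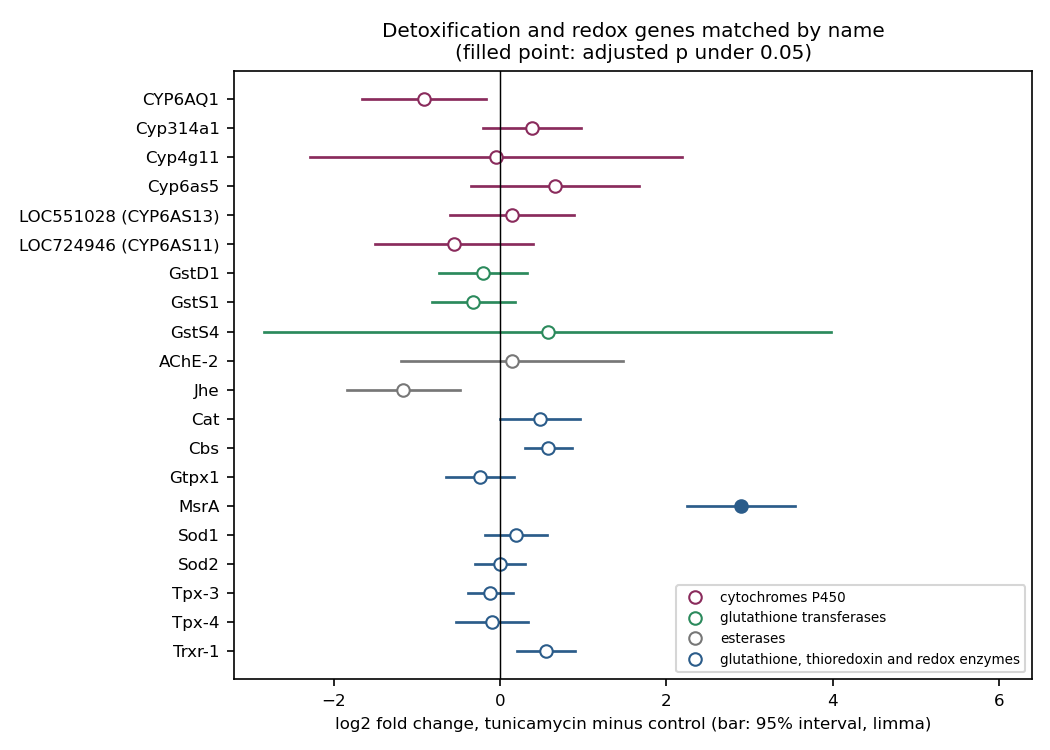
Log2 fold change (tunicamycin minus control, limma) with 95% intervals for the 20 genes matched by name as P450s, glutathione transferases, esterases, or glutathione, thioredoxin and redox enzymes. MsrA, at 2.90, is the single filled point (adjusted p under 0.05).

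Among 9 enzymes that supply or protect the glutathione and thioredoxin systems, 1 rose and none fell in limma. Over all genes, 1.06% were higher and 0.0699% lower. The list was chosen with earlier results of these data known, so the count cannot be read as an excess over that share. The median log2 fold change of the 9 was 0.19. The gene that rose was MsrA, which repairs oxidised methionine, with 933, 686 and 528 normalized reads in controls 1, 2 and 3, against 4161, 7483 and 4565 in tunicamycin samples 2, 3 and 4 (log2 fold change 2.90, SE 0.28; limma adjusted p = 0.00786). Cbs, which feeds sulfur toward cysteine and so toward glutathione, stood at a log2 fold change of 0.58 (SE 0.12; limma adjusted p = 0.0878; DESeq2 adjusted p = 0.00586). Trxr-1, the thioredoxin reductase that in Drosophila also keeps glutathione reduced, stood at 0.55 (SE 0.15; limma adjusted p = 0.150; DESeq2 adjusted p = 0.00973). The peroxidase gene Gtpx1 was at -0.24 (SE 0.17), and the thioredoxin peroxidases Tpx-3 and Tpx-4 at -0.12 (SE 0.12) and -0.10 (SE 0.19). Catalase (Cat) was at 0.48 (SE 0.21), and the superoxide dismutases Sod1 and Sod2 at 0.19 (SE 0.16) and 0.00 (SE 0.13). None of these last 6 passed in limma, edgeR or DESeq2. DESeq2, which called Cbs and Trxr-1, called 5.27% of all genes.

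Of the esterases, Jhe, which breaks down juvenile hormone, was lower in every tunicamycin sample (1270, 2116 and 948 normalized reads) than in any control (2571, 3719 and 3009), at a log2 fold change of -1.17 (SE 0.29; limma adjusted p = 0.128). The groups of 10.7% of all genes were likewise separate with tunicamycin lower. Of 15 alternatives 2 called Jhe, DESeq2 (adjusted p = 0.0101) and limma without tunicamycin sample 3 (adjusted p = 0.0422). Over all genes, DESeq2 called 5.27%, and limma without tunicamycin sample 3 called 99 of 10013. The highest adjusted p of the 15 was 0.359, in limma without tunicamycin sample 4. AChE-2, an acetylcholinesterase, was low, between 15.9 and 62.1 normalized reads, with a log2 fold change of 0.14 (SE 0.57). No P450 reductase, CncC, Keap1, UDP-glycosyltransferase, epoxide hydrolase or ABC transporter gene was matched by name, and those genes were not analysed here.

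The genes whose profiles were most like each of the 4 were sought among the 302 other genes with a symbol, by the root mean square difference of log2 values, each gene centred on its own mean over the 6 samples. Because the choice used these same samples, the group differences of the chosen genes follow in part from it and are no separate support. Over all genes measured, from 13 to 160 lay closer to a member than a gene named here. For CYP6AQ1 they were Gpdh, a glycerol-3-phosphate dehydrogenase (0.26), the tRNA gene TRNAG-CCC (0.26) and the alpha-glucosidase Hbg3 (0.28), against a median of 0.70 over all 302. Hbg3 was at a log2 fold change of -0.84 (SE 0.23; limma adjusted p = 0.163; DESeq2 adjusted p = 0.0278). For Cyp6as5 they were the glutamate receptor mGlutR1 (0.34), the tRNA gene TRNAK-CUU (0.37) and the ribosomal protein gene Rpl39 (0.40), against a median of 0.76. The first pair of these were low, with no value above 45.0 normalized reads. TRNAG-CCC, named above for CYP6AQ1, was low as well, between 19.8 and 73.8 normalized reads. Rpl39 was at a log2 fold change of 0.81 (SE 0.19; limma adjusted p = 0.110), and it was called by DESeq2 (adjusted p = 0.00698) and by limma without control 1 (adjusted p = 0.0440). Of all genes, DESeq2 called 5.27%, and limma without control 1 called 1.80% as higher.

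For GstD1 the closest were the transcription factor gene Mblk-1 (0.11), the troponin gene TpnCI (0.13) and the pipsqueak homologue Psq (0.14), against a median of 0.40. For GstS1 they were the odorant-binding protein gene Obp11 (0.08), Brd7 (0.11) and Ripk5 (0.13), against a median of 0.41. Obp11 held only from 84.9 to 131 normalized reads. The transferases differed from each other by 0.17. Among the genes with a symbol alone, this placed GstS1 7th in the order for GstD1 and GstD1 8th in the order for GstS1. Over all genes measured, 95 were closer to GstD1 than Psq was, and 160 were closer to GstS1 than Ripk5 was. CYP6AQ1 and Cyp6as5 differed by 1.13, so that Cyp6as5 came 275th in the order for CYP6AQ1.

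Genes beside the 4 in the reference order were looked up as well, 3 on each side. Of these 24 neighbours 16 were measured, none passed in limma, against 1.13% of all genes, and their log2 fold changes ranged from -1.25 to 1.13. The groups of 3 of the 16 did not overlap, against 21.8% of all genes in either direction. LOC102654959, next to CYP6AQ1, was higher in tunicamycin where CYP6AQ1 was lower (control 30.2 ± 5.43 and tunicamycin 49.8 ± 4.27 normalized reads, SD, n = 3 each), at a log2 fold change of 0.72 with an SE of 0.25 (limma adjusted p = 0.251). LOC552283, next to GstS1, was lower (1808 ± 712 and 719 ± 49.8; log2 fold change -1.25, SE 0.29; limma adjusted p = 0.108), and so was LOC412936 near Cyp6as5 (2259 ± 55.6 and 1559 ± 133; log2 fold change -0.54, SE 0.11; limma adjusted p = 0.0760). DESeq2 called LOC552283 (adjusted p = 5.18e-04) and LOC412936 (adjusted p = 0.00183), and limma without control 1 called LOC552283 (adjusted p = 0.0107). Over all genes DESeq2 called 5.27%, and limma without control 1 called 202 of 10013. These neighbours were named because their groups did not overlap. No listed gene overlapped any of the 4 in the reference table.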

How the data were processed

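Messenger RNA of honey bee midguts was selected by poly(A), made into NEBNext Ultra libraries and sequenced on an Illumina HiSeq instrument, per the labels' protocols. STAR, Subread, DESeq2 and Trimmomatic 0.36 are named in the submitters' processing notes, without their roles or settings. Neither the genome build nor the strand setting of the counting is given in the sources used here. The deposited values, in 3 tables of a control and a tunicamycin sample each, are a normalized signal, gene read counts scaled by a size factor. The values themselves show this: 100% of them, divided by what a single read is worth in their sample, came out whole to within 0.001. The median ratio to the geometric mean was 1.0030 in all 6 samples, so samples were compared across tables.

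With limma 3.58.1 under R 4.3.3, the main test was limma-trend applied to log2(value + 1) of all 10013 genes in 6 samples, with the group as the sole term. Fold changes are on that scale, which understates changes of low genes. No filter on low values was used. Recovered reads were tested with edgeR 4.0.16, DESeq2 1.42.0 and limma-voom as alternatives. The members and lists were chosen with earlier results of these data known. The named genes were the 4 members, all genes matched to the lists by symbol or synonym (mRpL16, caught by a prefix, was left out), the 3 genes most like each member, neighbours whose groups did not overlap, and Hsc70-3. Genes related to the members by protein sequence were not analysed here.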

Additional observations from a re-analysis of the deposited data

How the results depend on the processing

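The log2 fold changes of CYP6AQ1, Cyp6as5, GstD1 and GstS1 kept their sign in all 15 alternatives each. These were other tests, pseudocount, filter, scalings between libraries, blocks and each sample left out. A single call changed, that of Cyp6as5 without control 1. Per read of the enterocyte markers the means of both transferases were higher in tunicamycin, which rested on tunicamycin sample 4. With 1 sample left out the log2 fold changes ranged from -1.18 to -0.59 for CYP6AQ1, 0.30 to 1.21 for Cyp6as5, -0.39 to -0.02 for GstD1 and -0.48 to -0.20 for GstS1. The 6 ratios between them kept their sign with a pseudocount of 0.1 and with each sample left out.

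Over all genes, against 113 calls, DESeq2 called 516 (4 list genes: MsrA, Trxr-1, Cbs and Jhe, against MsrA alone), and leaving out 1 sample gave 20 (without control 3) to 202 calls (without control 1), with 1 to 2 list genes; the cause was not tested. With the replicate block by shared number (4 samples) 4 genes and 0 list genes passed in limma, and with the deposited tables as the replicate block 44 genes did; 0 members passed with either block. The correlation of deviations from the group mean was 0.05, 0.15 and 0.05 for control and tunicamycin samples of a table, and -0.12 and -0.10 for those of a number, so the samples were not treated as paired.

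Genes near a log2 fold change of 0, or low, changed sign. Cyp4g11 (-0.05) was at 0.13 in edgeR, 0.13 in DESeq2 and 0.012 in limma-voom; with the replicate block by shared number GstS4 was at -1.002 and AChE-2 at -0.18. With 1 sample left out the range was -0.87 to 0.77 for Cyp4g11, -0.11 to 0.44 for LOC551028, -0.95 to 1.57 for GstS4, -0.36 to 0.59 for AChE-2, -0.088 to 0.099 for Sod2, -0.23 to 0.038 for Tpx-4, -0.032 to 0.58 for mGlutR1, -0.083 to 0.71 for TRNAK-CUU and -0.25 to 0.010 for Psq.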
